A study of Mus musculus with 12 samples.

Results

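The genes of sphingosine 1-phosphate (S1P) signalling described here are 4 receptor genes (S1pr1, S1pr2, S1pr3 and S1pr4), the kinase genes Sphk1 and Sphk2, the lyase gene Sgpl1 and the exporter gene Spns2. These 8 genes are a fixed list out of 22274 gene rows in mouse tumors and 19496 named rows in macrophages. All 8 have a row in the tumor table and 7 were analysed in the macrophage table, where Sphk1 is not analysed here. They were selected on their levels and group differences in both comparisons, which were already known, so their fold changes and calls are given as a description, without p-values.

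S1P is a lipid messenger made from the ceramide backbone sphingosine. Sphingosine kinases phosphorylate sphingosine, Spns2 carries the product out of the cell, and outside it S1P binds G protein-coupled receptors on the same or on neighbouring cells. Inside the cell, the lyase splits S1P irreversibly, while phosphatases return it to sphingosine. Gradients of S1P guide the exit of lymphocytes from lymphoid organs and keep vessels tight, and macrophages and tumor cells both make and sense it.

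RNA-seq was done on 12 libraries in 4 groups of 3. The tumor groups came from MC38, a mouse colon adenocarcinoma line, grown under the skin of C57BL/6 mice. In the shChrebp group the injected cells carried an RNA hairpin targeting Chrebp, and in the shCtrl group a non-targeting one. The genotype is labelled Chrebp knockdown for the shChrebp tumors and WT for the shCtrl tumors. Chrebp is a glucose-responsive transcription factor whose gene symbol is Mlxipl. The host mice are not labelled as altered. The other groups were bone-marrow-derived macrophages (BMDM). All of them had 4 h of LPS with IFN-γ, which activate macrophages, and a later 24 h in fresh medium, with 200 µM choline in the choline group and PBS in the PBS group. The labels give no age of the mice and do not say whether replicates were separate animals or cultures, so the errors measure only the spread between these libraries, which may be technical.

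Tumor libraries held 16010568 to 24181897 estimated counts in shChrebp and 15844794 to 19177328 in shCtrl, and BMDM libraries 34960715 to 35370365 reads with choline and 34994222 to 35393487 with PBS, as recovered from the deposited FPKM, a level scaled by transcript length and library size. By gene identifier, the hairpin target Mlxipl had 1, 1 and 2 counts in shChrebp and 3, 1 and 1 counts in shCtrl, too few to check the labels. Most endothelial and lymphocyte markers were scarce in the tumor libraries. None of 7 endothelial markers reached 1 CPM (counts scaled to library size) on average, and Cd3e, Cd3d, Cd8a and Ncr1 of the 8 lymphocyte markers were at 0 in every tumor library. Of 6 platelet and erythroid markers 3 reached 1 CPM, with a sum of 24.6 to 31.0 CPM in shChrebp and 23.6 to 29.7 CPM in shCtrl, mostly haemoglobin. Of 8 macrophage markers 3 reached 1 CPM in tumors, with a sum of 37.0 to 41.2 CPM in shChrebp and 48.8 to 53.2 CPM in shCtrl, while all 7 analysed did in BMDM. Of these 3 only Cd68 was called, lower, at 11.4 CPM in shChrebp and 24.5 CPM in shCtrl, while Cd14 and Lyz2 were not called. The other macrophage markers, Adgre1, Csf1r, Itgam, C1qa and Fcgr1, were scarce, each averaging at most 0.38 CPM in either tumor group. The 7 fibroblast and mural markers summed to 409 to 433 CPM in shChrebp tumors and 341 to 360 CPM in shCtrl tumors. The higher sum came from Cspg4, at 331.7 CPM in shChrebp and 247.5 CPM in shCtrl, while Pdgfra and Dcn were called lower, at −0.41 ± 0.06 and −1.93 ± 0.16 on the log2 scale (SE). The part of these markers in the results below was not tested. The library shCtrl 1 stood apart by epithelial and smooth muscle genes, named here after their values were seen. The keratin gene Krt8 was at 10.99 FPKM in it and at 1.63 and 0.826 FPKM in the other shCtrl libraries. Leaving shCtrl 1 out left the number of S1P members called at 5. With most endothelial, lymphocyte and macrophage markers scarce, the tumor libraries held few transcripts particular to such host cells. How much of each library came from the MC38 cells themselves was not tested. In bulk tumors, fewer cells of a type and less RNA per cell cannot be told apart.

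Promoter stretches are shown for the members with the greatest tumor change and for those that differed with choline, so that each result can be read beside its control region. Of the 8 members 7, all but S1pr1, had a promoter window in RefSeq, 12 windows in all (build GRCm38.p6, 300 bases each). The 250 bases before the annotated start are printed 5′ to 3′ on the gene's strand. S1pr3 lies at chr13:51408368-51408617 on the plus strand. On the minus strand, Spns2 lies at chr11:72475028-72475277, S1pr2 at chr9:20976794-20977043, Sphk2 (the first of its 2 windows) at chr7:45718003-45718252 and Sgpl1 at chr10:61147685-61147934. Capitals mark GC boxes (GGGCGG, bound by Sp1-type factors) and cAMP response elements (CRE, TGACGTCA), found on both strands.
S1pr3: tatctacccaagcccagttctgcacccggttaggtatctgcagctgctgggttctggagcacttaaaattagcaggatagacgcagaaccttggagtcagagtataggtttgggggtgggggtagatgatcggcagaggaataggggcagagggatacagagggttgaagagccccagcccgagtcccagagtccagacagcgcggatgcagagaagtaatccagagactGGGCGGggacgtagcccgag
Spns2: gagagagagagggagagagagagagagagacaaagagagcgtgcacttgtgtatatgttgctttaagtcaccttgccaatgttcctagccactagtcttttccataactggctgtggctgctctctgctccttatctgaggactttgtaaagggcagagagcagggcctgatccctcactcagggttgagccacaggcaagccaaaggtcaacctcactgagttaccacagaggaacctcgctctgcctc
S1pr2: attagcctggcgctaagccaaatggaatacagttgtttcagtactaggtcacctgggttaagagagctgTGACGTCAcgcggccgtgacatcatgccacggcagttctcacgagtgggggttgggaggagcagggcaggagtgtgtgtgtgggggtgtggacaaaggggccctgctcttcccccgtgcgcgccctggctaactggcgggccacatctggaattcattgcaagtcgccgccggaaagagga
Sphk2: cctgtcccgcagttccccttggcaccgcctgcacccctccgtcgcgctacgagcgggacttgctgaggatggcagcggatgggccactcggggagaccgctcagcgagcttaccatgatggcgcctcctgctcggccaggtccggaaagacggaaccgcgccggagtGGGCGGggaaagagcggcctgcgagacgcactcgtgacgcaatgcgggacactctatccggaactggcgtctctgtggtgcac
Sgpl1: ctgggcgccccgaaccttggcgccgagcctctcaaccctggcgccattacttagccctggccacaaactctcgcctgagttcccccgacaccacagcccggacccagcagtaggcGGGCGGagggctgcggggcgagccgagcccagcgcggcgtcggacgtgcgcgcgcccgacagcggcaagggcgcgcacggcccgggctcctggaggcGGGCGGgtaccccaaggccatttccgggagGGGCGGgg

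The window of S1pr2 held a CRE whose first base is at −181 from the start, and the first Sphk2 window held one from base 4, counted from 1 at the start and so beyond the printed stretch. A CRE was found in 588 of all 32851 promoter windows (1.79%). The Sgpl1 window held 4 GC boxes, 1 of them from base 5 and so beyond the printed stretch. The S1pr3 window held 1, and the first and second Sphk2 windows 1 and 3. The S1pr2 window held 1 from base 9, also beyond the printed stretch. A GC box was found in 35.7% of all windows. The Spns2 window held none of the motifs searched. The E-box CACGTG, the core that Chrebp and its relatives bind, was found among members only at 1 site of Sphk1, which lies in 2 overlapping windows, and in 7.15% of all windows. A pair of exact E-boxes spaced by 5 bases (CACGTGNNNNNCACGTG) was in 0 of the 32851 windows, so this search cannot tell members from other genes. Pairs with inexact copies were not searched. The AP-1 element TGANTCA was found at 1 site of Sphk1, also in 2 overlapping windows, and in 7.81% of all windows. The interferon response motif GAAANNGAAA was in no member's window and in 3.44% of all. A match is only a run of letters and shows no binding, and the absence of one says nothing of the factor.

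In shChrebp tumors the transcripts of the receptor S1pr3 and of the exporter Spns2 were both at 0.436 times their shCtrl level, S1pr1 was at 0.694 and Sphk1 at 0.701 times, and the lyase Sgpl1 was 1.37-fold higher. S1pr2 and Sphk2 did not pass the threshold. A gene is called here when its Benjamini-Hochberg adjusted p, over all genes of its table, is under 0.05. Of the 7 members tested, 5 were called, 4 lower and 1 higher, where 38.2% of all 11780 tumor genes tested were called, 19.7% lower and 18.6% higher. S1pr4 did not pass the low-count filter, and with no filter it was not called either. Since the choice of the members used this comparison, nothing is read from these shares.

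S1pr3 couples to Gi, Gq and G12/13 proteins. In the deposited tumor table the row with the S1pr3 identifier carries the symbol Mlxipl and the row with the Mlxipl identifier carries S1pr3. The counts and FPKM of the row used here for S1pr3 imply a length of 4463 bases, equal to its single annotated transcript. S1pr3 was at 2.40, 2.72 and 2.27 FPKM in the shChrebp tumors, against 5.32, 5.81 and 5.85 FPKM in the shCtrl tumors. The highest shChrebp library was below the lowest shCtrl library. The log2 fold change was −1.20 ± 0.09 (SE), and −1.23 without shCtrl 1.

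S1pr1 couples mainly to Gi and is the main S1P receptor of endothelium and lymphocytes. It was at 1.07, 1.07 and 1.17 FPKM in shChrebp tumors, against 1.55, 1.78 and 1.42 FPKM in shCtrl tumors, without overlap. The log2 fold change was −0.53 ± 0.18 (SE), from 57 to 79 counts per library in shChrebp and 75 to 90 in shCtrl. The call was lost with DESeq2 and on leaving out shChrebp 2 or shCtrl 2, where the log2 fold changes were −0.52, −0.51 and −0.44. Summed over the 7 endothelial markers, the level was 0.91 to 1.58 CPM in shChrebp and 1.67 to 3.79 CPM in shCtrl. S1pr1 itself averaged 3.36 ± 0.17 CPM in shChrebp and 4.83 ± 0.55 CPM in shCtrl (SD, n = 3 each). The 8 lymphocyte markers summed to 0.248 to 0.562 CPM in shChrebp and 0.379 to 0.421 CPM in shCtrl. The part of these cell types in the S1pr1 difference was not tested.

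S1pr2, which signals mainly through G12/13 proteins, was the most abundant S1P receptor transcript in every tumor library. It was at 7.17, 8.03 and 6.98 FPKM in shChrebp and at 7.59, 7.68 and 8.15 FPKM in shCtrl. The groups overlapped, and the log2 fold change of −0.08 ± 0.06 (SE) was not called. S1pr4, a receptor of lymphoid and myeloid cells, had 2, 1 and 0 counts in shChrebp and 0, 2 and 1 counts in shCtrl. S1pr5, the remaining receptor of the family and no member of the list, had 5, 10 and 3 counts in shChrebp and 6, 4 and 7 counts in shCtrl. Neither of these low receptors could be compared at this depth.

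Per length, the make-up of the receptor transcripts differed between the tumor groups in proportion as well as in sum. The 4 receptors summed to 10.42 to 11.84 FPKM in shChrebp libraries and 14.46 to 15.44 FPKM in shCtrl libraries. S1pr3 made up 21.8 to 22.9% of that sum in shChrebp and 36.8 to 37.9% in shCtrl. S1pr2 made up 67.0 to 67.9% in shChrebp and 50.1 to 52.8% in shCtrl. S1pr1 made up 9.06 to 11.2% in shChrebp and 9.20 to 11.6% in shCtrl. The bars of receptor shares by library show the S1pr3 block narrower in each shChrebp tumor and the S1pr2 block wider.

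**Figure D1:**
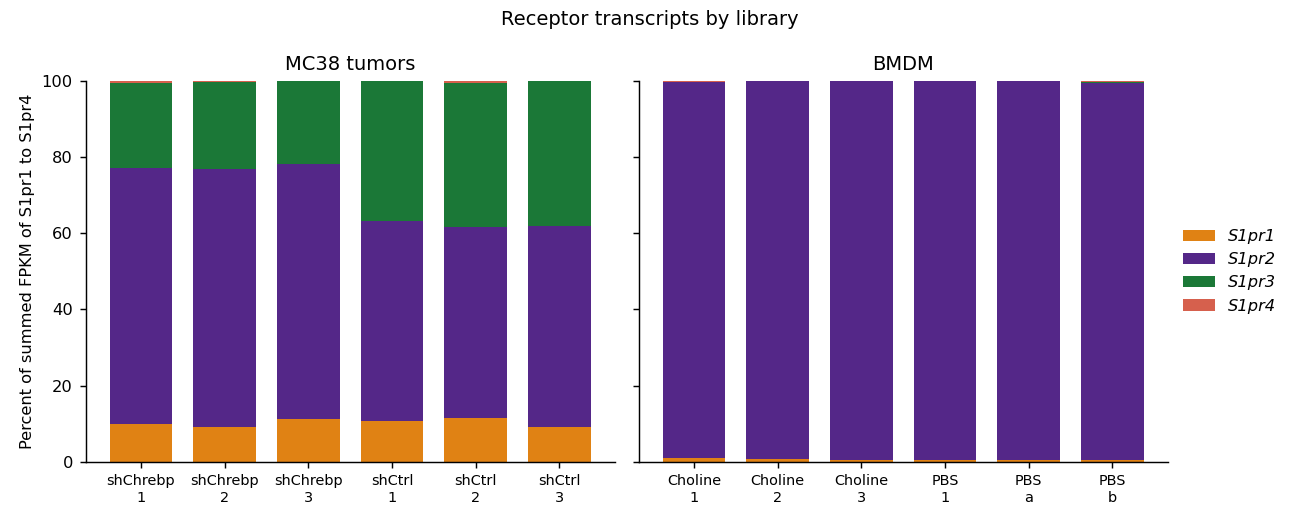
Percent of the summed FPKM of S1pr1 to S1pr4 that each receptor made up, as 1 stacked bar per library, for MC38 tumors and for BMDM. S1pr3 makes up 21.8 to 22.9% in shChrebp tumors and 36.8 to 37.9% in shCtrl tumors, and S1pr2 makes up at least 98.7% in every BMDM library.

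The kinases make S1P, Sphk1 mainly in the cytosol and at the plasma membrane, Sphk2 in the nucleus and at internal membranes. Sphk1 was at 2.30, 1.88 and 2.31 FPKM in shChrebp tumors, against 3.17, 2.47 and 3.32 FPKM in shCtrl tumors. The highest shChrebp library was below the lowest shCtrl library, by a small gap in FPKM. In CPM, Sphk1 averaged 3.56 ± 0.293 in shChrebp and 5.02 ± 0.211 in shCtrl (SD, n = 3 each). The log2 fold change was −0.51 ± 0.17 (SE), and the call was lost with DESeq2, by limma-trend on log2(FPKM + 0.1) and on leaving out shChrebp 2 or shCtrl 3, where it was −0.50, −0.44, −0.44 and −0.48. The antisense model Gm29292 shares 192 exonic bases with Sphk1.

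Sphk2 was at 5.72, 5.69 and 5.91 FPKM in shChrebp tumors, against 5.01, 5.50 and 5.28 FPKM in shCtrl tumors. All 3 shChrebp libraries were above the shCtrl libraries, but the log2 fold change of 0.11 ± 0.08 (SE) was not called. The FPKM of Sphk2 over that of Sphk1 was 2.49 to 3.04 in shChrebp and 1.58 to 2.22 in shCtrl. Sphk2 was above Sphk1 in every tumor library. Annotated exons of Sphk2 overlap those of Rpl18 (8.97%) and Dbp (13.0%) on the opposite strand. Rpl18 averaged 329.5 ± 16.2 FPKM in shChrebp and 352.8 ± 20.1 FPKM in shCtrl (SD). It was called lower at −0.12 ± 0.04 (SE), a call lost in 7 of 12 alternatives. Dbp was not called. The part of these genes in the tumor Sphk2 level was not tested.

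The lyase gene Sgpl1 was by far the most abundant member. It was at 47.4, 47.1 and 44.8 FPKM in shChrebp tumors, against 35.8, 35.7 and 32.7 FPKM in shCtrl tumors. The groups did not overlap, and the log2 fold change was 0.45 ± 0.04 (SE). Sgpl1 exceeded Sphk2 by 7.58 to 8.28 times in shChrebp and by 6.19 to 7.16 times in shCtrl, per length.

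Spns2, which exports S1P from endothelium and other cells, was at 0.851, 0.829 and 0.925 FPKM in shChrebp tumors, against 1.93, 2.02 and 1.98 FPKM in shCtrl tumors. The groups were far apart relative to their spread, on 48 to 65 counts per library in shChrebp and 99 to 123 in shCtrl. The log2 fold change was −1.20 ± 0.16 (SE). In CPM, Spns2 averaged 2.81 ± 0.163 in shChrebp and 6.41 ± 0.156 in shCtrl (SD, n = 3 each). The part of endothelial cells in the Spns2 difference was not tested. The exons of Spns2 share 131 bases with those of Mybbp1a on the opposite strand, and whether strand was used in counting is not given. Mybbp1a averaged 143.6 ± 3.91 FPKM in shChrebp and 141.8 ± 4.66 FPKM in shCtrl, a log2 fold change of 0.01 ± 0.03.

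**Figure D2:**
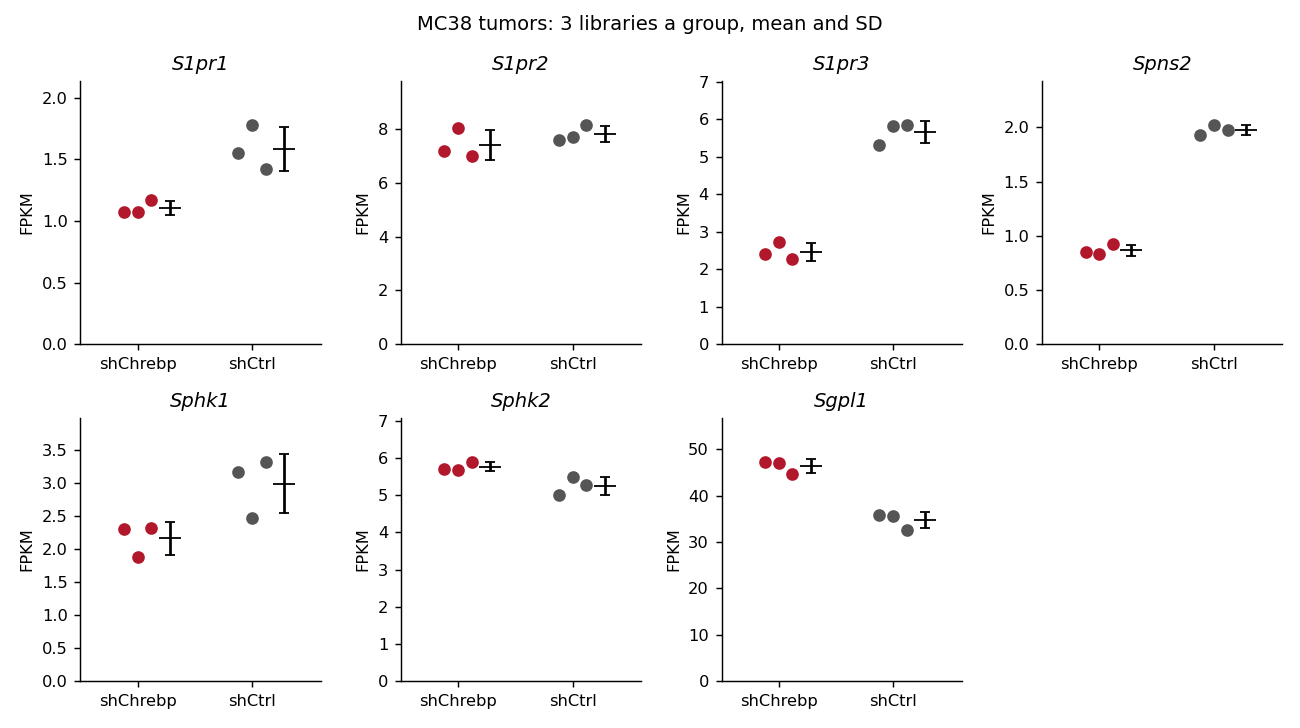
FPKM of 7 members in MC38 tumors, each panel with its own axis from 0. Points are libraries, 3 in shChrebp and 3 in shCtrl, and the bars beside them give the mean and SD. S1pr3 and Spns2 are lower in shChrebp and Sgpl1 higher without overlap, while S1pr2 overlaps. S1pr4, with at most 2 counts in a library, is not drawn.

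By level, the order in shChrebp tumors was Sgpl1, S1pr2, Sphk2, S1pr3, Sphk1, S1pr1, Spns2 and S1pr4. In shCtrl tumors S1pr3 stood above Sphk2 and Spns2 above S1pr1. Neighbours whose libraries overlapped were S1pr3 and Sphk1 in shChrebp and S1pr3 and Sphk2 in shCtrl. The mean of S1pr3 was 2.46 ± 0.23 FPKM in shChrebp, next to Sphk1 at 2.16 ± 0.25 FPKM.

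Genes with the most similar tumor profile were sought by the root mean square difference of centred log2 CPM over the 6 libraries, among 10605 tested genes averaging 50 counts or above. Nearest to S1pr3 were Tor3a, Thbs1 and Gbp7, at 0.0447, 0.0523 and 0.0544. Nearest to Spns2 were Nfkbiz, Spp1 and Trim30a, at 0.0365, 0.0388 and 0.0401. Nearest to Sgpl1 were Vat1, Zfp992 and Pbxip1, at 0.0212, 0.0257 and 0.0285. S1pr1 lay nearest to Ifi207, Trim71 and Bmp6, Sphk1 to Cenpp, Tuft1 and Gpcpd1, and S1pr2 to Keap1, Polr3b and Brsk1. With 2 groups of 3, this measure mostly ranks genes by the same group difference.

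In macrophages exposed to choline the kinase Sphk2 was 1.89-fold and the lyase Sgpl1 1.29-fold the PBS level, and the receptor S1pr2 was at 0.819 times it. No other member reached the minimum for testing, 1 FPKM in 3 libraries, and all 3 were called, where 57.4% of 10028 BMDM genes tested were called, 29.2% lower and 28.2% higher. The other 4 members analysed were below it. As before, the choice of members used this comparison and nothing is read from the shares.

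Of the receptors analysed in BMDM, which do not include S1pr5, only S1pr2 was more than traces. It was at 5.31, 5.84 and 5.79 FPKM with choline, against 7.26, 6.85 and 6.65 FPKM with PBS. The highest choline library was below the lowest PBS library, and the log2 fold change on log2(FPKM + 0.1) was −0.29 ± 0.06 (SE). S1pr2 made up 98.7 to 99.5% of the summed receptor FPKM with choline and 99.0 to 99.5% with PBS. S1pr1 had 6, 5 and 3 recovered reads with choline and 4, 4 and 4 with PBS. S1pr4 had 1 read in the 3 choline libraries together and 2 in the PBS libraries. S1pr3 had 0 reads with choline, which allows up to 0.0284 CPM by 3 reads over the group (counting error only), and 1 read with PBS.

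Sphk2 was at 18.5, 18.2 and 17.8 FPKM with choline, against 9.58, 10.4 and 8.81 FPKM with PBS. The groups were far apart, and the log2 fold change was 0.92 ± 0.06 (SE). Annotated exons of Sphk2 share 539 bases (13.0%) with Dbp and 373 bases (8.97%) with Rpl18, both on the opposite strand. Rpl18, a ribosomal protein gene, was at 427, 420 and 399 FPKM with choline and 397, 409 and 390 FPKM with PBS (log2 fold change 0.06 ± 0.04, SE; limma adjusted p = 0.2). Dbp, a clock-controlled transcription factor, averaged 0.882 ± 0.144 FPKM with choline and 0.972 ± 0.213 FPKM with PBS (SD, n = 3 each) and was not tested.

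Sgpl1 was at 65.0, 65.6 and 67.7 FPKM with choline, against 50.3, 51.9 and 51.4 FPKM with PBS. The groups did not overlap, and the log2 fold change was 0.37 ± 0.04 (SE). Per length, Sgpl1 exceeded Sphk2 by 3.52 to 3.80 times with choline and by 4.99 to 5.84 times with PBS. Spns2 had 4, 7 and 4 recovered reads with choline and 1, 3 and 0 with PBS, at most 0.0491 FPKM. The order of levels was Sgpl1, Sphk2 and S1pr2 in both BMDM groups, without overlap between these neighbours.

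**Figure D3:**
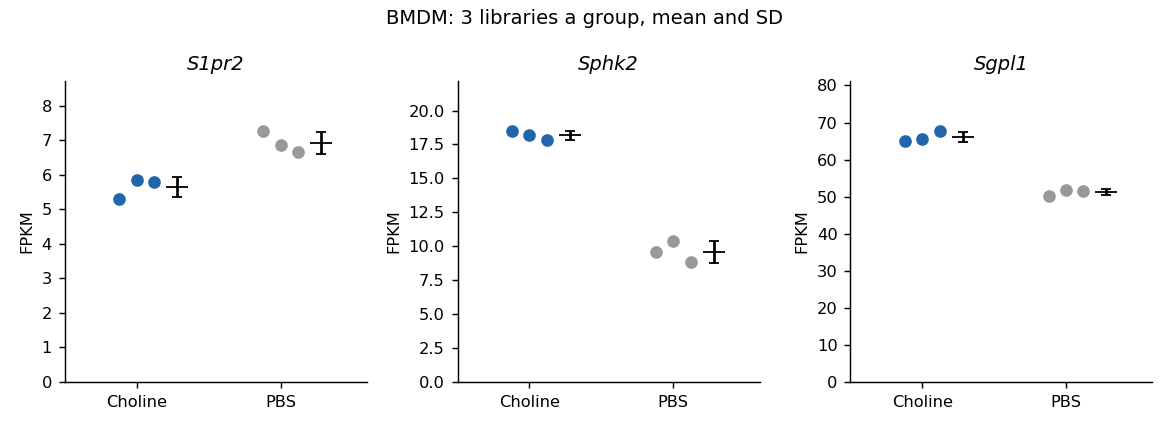
FPKM of the 3 tested members in BMDM, each panel with its own axis from 0. Points are libraries, 3 with choline and 3 with PBS, and the bars beside them give the mean and SD. Sphk2 is at 17.8 to 18.5 FPKM with choline and at 8.81 to 10.4 FPKM with PBS.

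Of the 7 macrophage markers 3 were called higher with choline and 1 lower, a share near the 57.4% of all BMDM genes. They summed to 6590 to 7190 CPM with choline and 5470 to 5710 CPM with PBS, most of it Lyz2, at 4017 CPM with choline and 2742 CPM with PBS, while Csf1r, Cd68 and Itgam were not called. Fcgr1, a high-affinity Fc receptor, averaged 26.9 ± 0.543 FPKM with choline and 8.07 ± 0.35 FPKM with PBS (SD, n = 3 each). The 5 endothelial, 3 lymphocyte and 3 epithelial markers analysed each stayed under 1 CPM in sum in every BMDM library. The part of these markers in the differences of members was not tested.

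The nearest BMDM profiles were sought in the same way on log2(FPKM + 0.1) among 9889 genes. Nearest to Sphk2 were Slc43a3, Ttc7 and Itgb7, at 0.0256, 0.0277 and 0.0321. Nearest to Sgpl1 were Washc5, Atxn7l3b and Mad2l1, and nearest to S1pr2 were Kifc1, Rmc1 and Safb2.

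**Figure D4:**
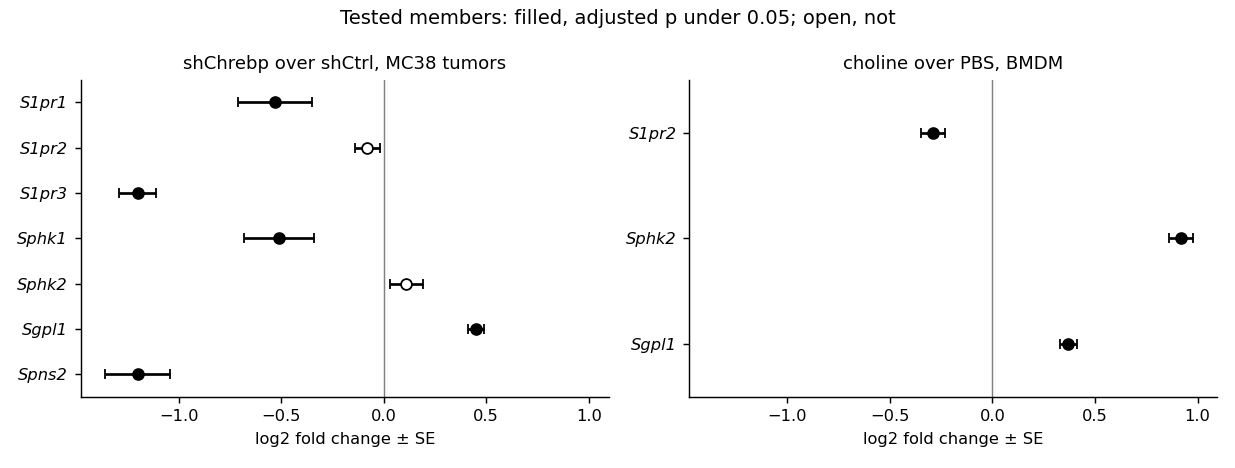
Log2 fold change ± SE of the tested members, shChrebp over shCtrl in MC38 tumors on the left and choline over PBS in BMDM on the right. Filled points have an adjusted p under 0.05. Sgpl1 is to the right of 0 in both panels, at 0.45 and 0.37, and S1pr2 is at −0.08 and −0.29.

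Set side by side, the log2 fold change of Sgpl1 was 0.45 ± 0.04 in shChrebp tumors and 0.37 ± 0.04 in choline-treated BMDM (SE). Sphk2 was at 0.11 ± 0.08 in shChrebp tumors and 0.92 ± 0.06 in choline-treated BMDM. The tables were normalized separately and differ in cells and treatment, so they were not tested against each other.

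Further genes of the pathway were followed in 6 lists, in which 31 of 64 tested genes were called in tumors (38.2% of all genes tested) and 25 of 47 in BMDM (57.4% of all). Among other genes that supply or remove S1P, the differences in shChrebp tumors were small except for Sgpp2. Of 10 tested, 2 were called higher and 4 lower (18.6% and 19.7% of all tumor genes). Their median log2 fold change was −0.13, against 0.00 over all 11780 genes tested. Asah1, the lysosomal ceramidase that releases sphingosine, was at 219, 205 and 207 FPKM in shChrebp and 166, 170 and 171 FPKM in shCtrl (log2 fold change 0.25 ± 0.03, SE; edgeR adjusted p = 9.05e-08). Sgpp2, an S1P phosphatase, was at 0.295, 0.227 and 0.281 FPKM in shChrebp and 0.678, 0.617 and 0.534 FPKM in shCtrl (log2 fold change −1.20 ± 0.27, SE; edgeR adjusted p = 0.00078). Its paralog Sgpp1, at 32.9 to 34.5 FPKM in the tumor libraries, was not called (−0.02 ± 0.04). Aldh3a2, which oxidises the aldehyde that the lyase releases, was at −0.17 ± 0.04 and Plpp2, a lipid phosphate phosphatase, at 0.19 ± 0.05.

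The same list in BMDM held 8 tested genes, of which 4 were called higher and 0 lower by limma (28.2% and 29.2% of all BMDM genes), with a median of 0.14 against 0.00 over all 10028. At an unadjusted p under 0.05, 0 were lower, and 0 were called lower by DESeq2 on recovered reads. The 4 of 8 called lie below the 57.4% called over all BMDM genes. Acer3, an alkaline ceramidase, was at 12.8, 14.2 and 15.6 FPKM with choline and 7.53, 7.78 and 8.81 FPKM with PBS (log2 fold change 0.81 ± 0.08, SE; limma adjusted p = 3.37e-05). Asah1 was at 34.3, 35.4 and 38.6 FPKM with choline and 27.9, 26.8 and 28.5 FPKM with PBS (0.38 ± 0.05, limma adjusted p = 0.000202). Asah2, the neutral ceramidase, was at 0.43 ± 0.13 and Aldh3a2 at 0.20 ± 0.05. The Asah2 call was lost without PBS a and the Aldh3a2 call without choline 2.

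Ceramide synthesis, upstream of sphingosine, held 11 tested genes in tumors, with a median of 0.12. Of these, 4 were called higher and 1 lower (18.6% and 19.7% of all tumor genes). Kdsr, which reduces ketosphinganine, was called at 0.38 ± 0.06 on the log2 scale (SE; edgeR adjusted p = 2.79e-06), Ormdl1, an inhibitor of the first step, at 0.23 ± 0.07 and the ceramide synthase gene Cers2 at 0.16 ± 0.03. Sptlc2, a subunit of the first enzyme, was at −0.17 ± 0.05. The Sptlc2 call was lost with DESeq2 and with limma-trend, and the Ormdl1 call with DESeq2. In BMDM 1 of 11 was called higher, Ormdl1 at 0.37 ± 0.06, and 1 lower, Cers5 at −0.31 ± 0.04. Over all BMDM genes, 28.2% were called higher and 29.2% lower.

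Of 11 genes that turn ceramide into other sphingolipids or back, 3 were called higher and 2 lower in tumors, with a median of 0.03. Over all tumor genes, 18.6% were called higher and 19.7% lower. The ceramide transfer protein gene Col4a3bp was at 19.4, 21.4 and 21.7 FPKM in shChrebp and 14.5, 14.5 and 15.4 FPKM in shCtrl (log2 fold change 0.50 ± 0.04, SE; edgeR adjusted p = 1.35e-10). The sphingomyelin synthase gene Sgms1 was at −0.40 ± 0.08 and the glucosylceramide synthase gene Ugcg at −0.16 ± 0.04. The Ugcg call was lost with limma-trend on FPKM. In BMDM 3 of 9 were called higher and 2 lower (28.2% and 29.2% of all BMDM genes), with a median of 0.07. Sgms1 was at 0.29 ± 0.05 there, Smpd2 at 0.47 ± 0.10 and Smpd4 at −0.30 ± 0.06.

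Genes through which S1P receptors couple, in a list that also holds Klf2 and Cd69, showed small differences in tumors. Of 15 tested, 3 were called higher and 2 lower (18.6% and 19.7% of all tumor genes), with a median of −0.03. Gna13 was at 0.23 ± 0.04, Arrb1, a beta-arrestin, at 0.25 ± 0.05, and Rhoa at −0.12 ± 0.03. The Arrb1 call was lost by limma-trend on FPKM, where its log2 fold change was 0.10. In BMDM 4 of 15 were called higher and 6 lower (28.2% and 29.2% of all BMDM genes), with a median of −0.02. Klf2, a transcription factor of quiescence, was at 30.8, 31.8 and 30.6 FPKM with choline and 14.2, 15.3 and 15.2 FPKM with PBS (log2 fold change 1.06 ± 0.05, SE; limma adjusted p = 1.74e-07). Klf2 is known in T cells as the activator of S1pr1 transcription. Arrb1 was at 6.12, 5.30 and 5.11 FPKM with choline and 12.2, 12.5 and 12.3 FPKM with PBS (−1.15 ± 0.07, limma adjusted p = 1.16e-06). Gnai2, the main Gi subunit of leukocytes, was at −0.59 ± 0.05 and Rhoa at 0.30 ± 0.03.

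The lysophosphatidate genes code for the receptors of lysophosphatidate, another lipid messenger, and for autotaxin, the enzyme that makes it. Enpp2, which codes for autotaxin, was at 1.66, 1.79 and 1.62 FPKM in shChrebp tumors and 8.27, 9.27 and 9.01 FPKM in shCtrl tumors (log2 fold change −2.40 ± 0.10, SE; edgeR adjusted p = 1.14e-18). Lpar1 was at 7.69, 5.50 and 5.09 FPKM in shChrebp and 14.73, 11.03 and 8.003 FPKM in shCtrl (−0.84 ± 0.07, edgeR adjusted p = 1.53e-10), and Lpar2 at 0.33 ± 0.07. The fold changes rest on counts, which spread less than FPKM for Lpar1. In CPM, Lpar1 averaged 17.07 ± 0.733 in shChrebp and 30.47 ± 2.12 in shCtrl (SD, n = 3 each). In all, 2 of 5 tested were called lower and 1 higher in tumors (19.7% and 18.6% of all tumor genes). In BMDM, where 29.2% of all genes were called lower, so were both tested genes, Lpar5 at −0.99 ± 0.13 and Lpar6 at −0.30 ± 0.08.

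Of 12 genes that YAP and SRF drive, downstream of G12/13 receptors, 7 were called lower and 0 higher in shChrebp tumors by edgeR (19.7% and 18.6% of all tumor genes), with a median log2 fold change of −0.48. At an unadjusted p under 0.05, 1 was higher, and 0 were called higher by DESeq2. Vcl, which links integrins to actin, was at 60.3, 63.1 and 57.5 FPKM in shChrebp and 89.0, 93.3 and 95.2 FPKM in shCtrl (log2 fold change −0.62 ± 0.04, SE; edgeR adjusted p = 9.04e-14). Amotl2 was at −0.45 ± 0.04, Ankrd1 at −0.26 ± 0.03 and Srf itself at −0.52 ± 0.06. The smooth muscle genes of the list were high in shCtrl 1. Myl9 was at 0.249, 0.220 and 0.111 FPKM in shChrebp and at 3.53, 0.640 and 0.555 FPKM in shCtrl. Neither Myl9, at a log2 fold change of −2.92, nor Cnn1, at −2.85, was called by edgeR. Both were called by DESeq2, at −2.99 and −2.86, and with no low-count filter, at −2.93 and −2.83. Without shCtrl 1 they were called at −1.56 and −1.85, and also without shCtrl 2, at −3.30 and −3.08, or without shCtrl 3, at −3.35 and −3.27. In BMDM, where 29.2% of all genes were called lower, so were the 2 tested genes of the list, Vcl at −0.53 ± 0.10 and Srf at −0.45 ± 0.06.

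**Figure D5:**
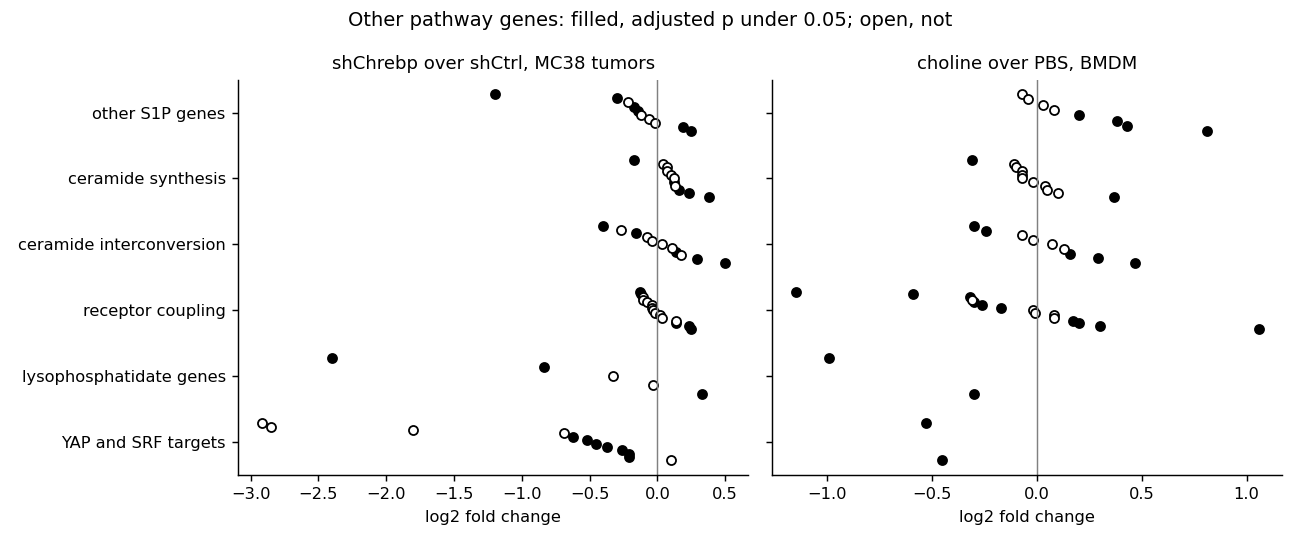
Log2 fold change of each tested gene of 6 further lists, shChrebp over shCtrl in MC38 tumors on the left and choline over PBS in BMDM on the right, each point a gene. Filled points have an adjusted p under 0.05. The lowest filled point in tumors is Enpp2 at −2.40, and the highest in BMDM is Klf2 at 1.06.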

How the data were processed

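Per the file headers, the deposited tumor table gives an estimated count and an FPKM value by the authors for each Ensembl gene. For BMDM the deposited table holds 1 value per symbol and library in a unit its headings do not name, taken as FPKM because the values step in whole reads per gene length. Per the submitters' processing notes, reads were placed on GRCm39. Which aligner and counter made the values is not given in the sources used here, nor is any use of strand. Of the tumor counts 92% are whole, and they were rounded. In BMDM, 19494 of 19496 rows were whole multiples of 1 read (tolerance 0.1), which gave the recovered reads. The headings give 2 PBS columns the same name, so these are PBS a and b.

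Tumor genes were tested with edgeR 4.0.16 (R 4.3.3), by the quasi-likelihood F test with TMM scaling, robust dispersion and filterByExpr. The SE given for a tumor fold change was back-calculated, as the absolute log2 fold change over the square root of F. BMDM genes were tested with limma 3.58.1 (trend, robust) on log2(FPKM + 0.1), which understates the changes of low genes, and a gene entered if 3 or more libraries reached 1 FPKM. Benjamini-Hochberg adjustment ran over each table, with a threshold of 0.05. DESeq2 1.42.0 and other scales were tried as alternatives. Exon overlaps came from GENCODE vM21 (GRCm38). Members and gene lists were chosen with earlier results of these data known. Named are the members, S1pr5, Mlxipl, up to 4 called genes per list with the smallest adjusted p, marker genes and the 3 nearest profiles. A few genes named by this rule are left out. Any other gene was named after its values were seen. Means are over 3 libraries.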

Additional observations from a re-analysis of the deposited data

How the results depend on the processing

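In tumors 5 members were called, 3 by DESeq2 and 3 to 5 on leaving out 1 library. The lowest count, 3, came without shChrebp 2, where S1pr1 and Sphk1 were not called. S1pr3, Spns2 and Sgpl1 were called in all 12 alternatives, and no member changed direction. In BMDM the 3 tested members were called in all 10 alternatives. Genes called lower in all tumors numbered 2316, against 1503 by limma-trend on log2(FPKM + 0.1) and 1509 on log2(FPKM + 1). Other pathway genes called numbered 31 in tumors, 21 to 36 over the alternatives, and 25 in BMDM, 20 to 27. On the recovered BMDM reads edgeR called 6441 genes and DESeq2 5990, against 5754 by limma. Mybbp1a, not called, was at −0.01 to 0.04 on leaving out 1 library, the lowest without shChrebp 2. Same-numbered tumor libraries deviated together with correlations of 0.0579, −0.0641 and −0.0254, so the titles' numbers were not taken as pairs. With the replicate block, 5 members, 34 other pathway genes and 4640 genes in all were called, and so were Myl9 at −2.79 and Cnn1 at −2.71, which were not called without it. For BMDM no paired analysis was possible because 2 PBS columns share a heading. Counts of at most 7 reads limit S1pr1, S1pr3, S1pr4 and Spns2 in BMDM.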
